A study of Mus musculus with 4 samples.

Results

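Isolated CTCF sites are here regions called as CTCF peaks whose next called neighbour on either side is at least 75 kb away. They were taken from peak lists of CTCF chromatin immunoprecipitation and sequencing (ChIP-seq) in 4 embryonic mouse tissues. Peaks of the 4 lists on chromosomes 1 to 19 were joined wherever they shared at least 1 base, which gave 118663 union regions, and 996 of these, or 0.839%, met the distance on both sides. The members were chosen by the measured positions of all peaks, so the spacing, the count and the tissue pattern of these regions are described without a test. All tissues came from wild-type embryos of the B6CBAF1 background and were precipitated with an Active Motif antibody to CTCF. Posterior trunk, labelled embryonic day (E) 10 with E9.75 to E10 in the protocol, was a dissection of tailbud, presomitic mesoderm and a few somites. It came from about 30 embryos, with hindlimb buds left out where possible. Brain was the telencephalon of 6 embryos at E12.5. Distal forelimb and proximal forelimb, both at E12.5, carry titles that mark them as data analysed again. With 1 library for each tissue, differences between tissues have no replicate check. Posterior trunk also differed from the other tissues in age, so its differences cannot be split into tissue and stage. The peak lists hold no expression values with which to check a tissue against its marker genes.

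CTCF is a zinc-finger protein that binds a long, directional DNA motif. It halts the cohesin complex as cohesin extrudes chromatin loops, and pairs of CTCF sites in convergent orientation commonly mark loop anchors and the borders of topologically associating domains. Sites are usually dense in gene-rich chromatin and sparse in gene deserts, where long stretches lie between one possible anchor and the next.

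The libraries differed in depth. The autosomal peaks numbered 62082 in proximal forelimb, 63005 in distal forelimb, 72022 in brain and 103901 in posterior trunk. The lowest local background of a list, which scales with its depth, gave depths relative to distal forelimb of 1.08 for proximal forelimb, 2.02 for brain and 2.21 for posterior trunk. Of the 996 isolated regions, 315 were called in proximal forelimb, 361 in distal forelimb, 545 in brain and 641 in posterior trunk.

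Few isolated regions overlapped a promoter window, and those are the ones whose sequence can be shown. Promoter windows were read from RefSeq on GRCm38.p6, the same assembly as mm10. Of the 955 isolated regions on autosomes with such windows, 10 overlapped such a window, or 1.05%, against 4.40% of all regions there. Of these, 4 were called in every tissue with all summits in the 250 bases upstream of a transcript start in that table. For Lsamp, Cast and Pde1c the summits lay inside the span of the gene, which begins further upstream. The genes are Lsamp, which encodes an adhesion protein of neuronal membranes, Cast, which encodes the calpain inhibitor calpastatin, Pde1c, a calmodulin-dependent phosphodiesterase gene, and the non-coding gene 6720473M11Rik. Their sequences are shown 5′ to 3′ on the strand of the gene, because they are the DNA at the summits, and for Lsamp also the window's bases before the gene span, which hold no summit. Capitals mark the stretch nearest the summits with at least 6 of the 7 fixed letters of the motif searched, on both strands. The motif, chosen here for the core that CTCF binds, was CC, any 3 bases, AG, any 2 bases and GGC.
Lsamp, before the gene span, chr16:39984114-39984253, plus strand: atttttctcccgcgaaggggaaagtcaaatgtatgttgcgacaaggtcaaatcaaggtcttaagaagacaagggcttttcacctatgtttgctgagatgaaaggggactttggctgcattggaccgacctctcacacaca
Lsamp, under the summits, chr16:39984281-39984310, plus strand: ggctgtgcGCACTAGATGGCagtagcgggg
Cast, at the summits, chr13:74770766-74770795, minus strand: gcaCCAGTAGGGAGCgtcagggaatctcag
Pde1c, under the summits, chr6:56362411-56362440, minus strand: ctccctccccacacggggtgccagccctgt
6720473M11Rik, before the gene span, chr16:3633189-3633438, minus strand: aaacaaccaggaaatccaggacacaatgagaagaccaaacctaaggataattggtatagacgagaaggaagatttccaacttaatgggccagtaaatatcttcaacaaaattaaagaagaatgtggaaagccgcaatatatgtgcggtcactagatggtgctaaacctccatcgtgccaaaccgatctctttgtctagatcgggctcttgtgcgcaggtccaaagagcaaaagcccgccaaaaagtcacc

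The 4 upstream windows held 0 exact matches to this motif, which occurred in 7.24% of 31365 such windows. At least 6 of 7 fixed letters matched in the windows of Lsamp, Cast and Pde1c, as in 58.3% of all windows, so this match is common. In Lsamp the summits fell at 39984293 in both brain and posterior trunk, 39984298 in proximal forelimb and 39984295 in distal forelimb, all within the capital letters. In Cast the distal forelimb summit, at 74770759, lay just outside the bases shown and the other 3 within them. In Pde1c the nearest matching stretch lay outside the bases shown, and 6720473M11Rik had none.

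The isolated regions stood in long free stretches of the genome. Their smaller gap ran from 75.05 kb to 1069 kb with a median of 96.0 kb, and their larger gap had a median of 157 kb. Over all regions the medians were 5.85 kb for the smaller and 18.02 kb for the larger gap. From one neighbour to the other, the stretch around an isolated region had a median length of 258 kb, against 25.4 kb over all regions. With 100 kb required on both sides 430 regions were left, with 150 kb 121, and with 200 kb 45.

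The regions next to the threshold show how finely it cuts. Just inside were chromosome 18 33653521–33653938, with a smaller gap of 75.05 kb, called in posterior trunk only, and chromosome 1 29770850–29771130, with 75.06 kb, called in brain only. Just outside was a pair of neighbours on chromosome 2 that share a gap of 74.97 kb. Of these, 107515616–107515864 was called in posterior trunk only and 107440127–107440642 in all 4 tissues.

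Isolated regions often followed one another. Of the 996, 504 or 50.6% were next to another isolated region, in 205 runs of 2 to 6 regions. One of the longest runs held 6 regions over 784 kb of chromosome 1, upstream of Brinp3, a gene of the nervous system. Each of these 6 was called in 1 tissue only, namely 3 in posterior trunk, 2 in brain and 1 in proximal forelimb, at rank percentiles between 4.803 and 31.2. The other run of 6 covered 759 kb of chromosome 7, where the nearest protein-coding gene was 1700015G11Rik. It had 4 regions of posterior trunk alone, 1 of proximal forelimb alone and 1 of trunk and brain.

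A run of 5 on chromosome 14 held strong and shared regions as well. It spanned 1528 kb between the protocadherin genes Pcdh20 and Pcdh9, which encode homophilic adhesion proteins. Its first region, 90432973–90433696, stood at percentile 85.8 of the proximal forelimb list, 80.7 of distal forelimb, 88.97 of brain and 99.7 of posterior trunk, and lay 1962 kb from Pcdh20. The regions 91014647–91015116 and 91960592–91960894 were also called in all 4 tissues. Between them lay 91265530–91265918, called in posterior trunk only, at percentile 41.2, with 250 kb free on one side and 695 kb on the other.

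By strength, isolated regions stood below the middle of every list as deposited, but among peaks of low local background this was not seen in posterior trunk, and in proximal forelimb it depended on how the set was built. A rank percentile orders the regions of a list by the authors' p, and 100 is the strongest. The median percentile of isolated regions was 31.4 in proximal forelimb, 27.5 in distal forelimb, 22.4 in brain and 37.3 in posterior trunk, where the median over all regions is close to 50.04 by construction. In the weakest decile lay 24.1% of the isolated regions of proximal forelimb, 25.2% of distal forelimb, 33.8% of brain and 12.3% of posterior trunk. In the strongest decile these shares were 3.17%, 2.77%, 2.39% and 3.59%. Brain thus had the largest excess of weak isolated regions, while in posterior trunk they were spread over the lower deciles.

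**Figure D1:**
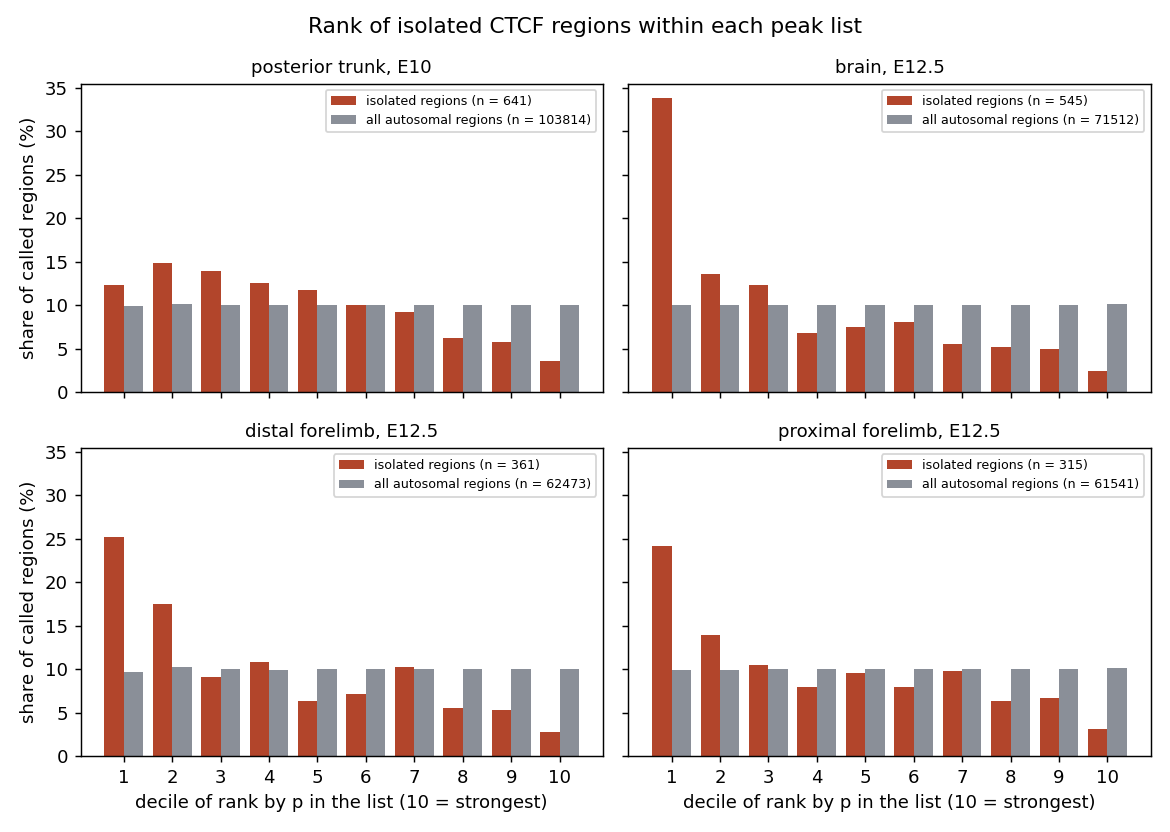
Share of called regions in each decile of rank by p (x axis, 10 the strongest) for isolated regions (red) and all autosomal regions (grey), with 1 panel per peak list. The red bars exceed the grey ones in the weakest decile of each list, most in brain at 33.8%, and fall to between 2.39% and 3.59% in the strongest decile.

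Folds, the authors' ratio of summit pileup to local background, were lower over all members of each list. Their median in isolated regions was 3.44 in brain, 4.77 in distal forelimb, 5.01 in proximal forelimb and 4.26 in posterior trunk. Over all regions called in these lists it was 5.72, 6.90, 6.68 and 4.97. Within a pattern this was not so in posterior trunk. The median fold there was 10.3 in isolated regions called in all 4 tissues, against 9.68 in all such regions. In trunk-only members it was 3.09, against 2.92. In the other lists folds were lower only among regions called in all 4 tissues, and not among those called in 1. Shared members had medians of 7.44 (proximal forelimb), 8.13 (distal forelimb) and 7.89 (brain), against 8.28, 8.72 and 8.46 over all shared regions. Members called in 1 tissue had 3.04, 3.06 and 2.52 in that order, the same as all one-tissue regions of these lists. The local background moved with isolation. It was over 1.5 times the lowest of its list in 9.17% of isolated regions of brain, 14.4% of distal forelimb, 15.2% of proximal forelimb and 8.89% of posterior trunk, against 43.5%, 51.5%, 49.9% and 45.2% over all regions. In a setting added after seeing the data, only peaks at or below 1.5 times the lowest background were kept, and regions, ranks and isolation were built again. The median percentile of isolated regions was then 34.8 in brain and 39.7 in distal forelimb, still below the middle. It was 50.15 in proximal forelimb, against 50.10 over all regions, and 55.3 in posterior trunk, against 50.03, so the order was turned there. With the members and ranks as deposited, members of low background had medians of 18.01 in brain, 20.5 in distal forelimb, 24.5 in proximal forelimb and 33.8 in posterior trunk. All regions of low background had 30.8, 27.2, 28.4 and 31.4, so members were again higher in posterior trunk and lower in the other lists.

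Some isolated regions were among the strongest CTCF sites of all lists. Chromosome 6 103833280–103834090, the region with the highest lowest rank, stood at percentile 98.5 in brain, 99.1 in distal forelimb, 99.03 in proximal forelimb and 98.1 in posterior trunk. It lay 100 kb from Chl1, which encodes a neural adhesion molecule of the L1 family, with 86.6 kb and 129 kb free on its sides. The region at the start of Lsamp, 39983930–39984847 on chromosome 16, followed with percentiles of 97.5, 97.6, 98.04 and 98.02 in the same order of tissues. It had 148 kb and 95.3 kb free.

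Chromosome 8 100850937–100851652 lay in a desert, 1433 kb from the cadherin gene Cdh8, at percentiles 96.5, 93.96, 96.2 and 99.2 in that order. On chromosome 4, 69195520–69196124 lay 241 kb from Brinp1, a neural gene related to Brinp3, at 95.9, 92.9, 92.6 and 96.1. Chromosome 2 99236768–99237517 lay 1605 kb from Lrrc4c, which encodes a postsynaptic adhesion protein, at 91.2, 92.2, 95.8 and 94.4. In these first 5 regions the percentiles of the 4 lists stayed within 6 points of each other, and the lowest was 91.2.

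Of the other 5 among the leading 10, 3 were in protein-coding genes. Chromosome 17 88953965–88954526 lay 30.4 kb from Fshr, the receptor gene for follicle-stimulating hormone, with a lowest percentile of 91.2. Chromosome 8 56062976–56063601 was in Glra3, a glycine receptor subunit gene, at 90.7, and chromosome 6 21534722–21535368 in Kcnd2, a gene of a voltage-gated potassium channel, at 90.3. Chromosome 18 42708579–42709239 was in Ppp2r2b, which encodes a regulatory subunit of protein phosphatase 2A, at 89.1. Chromosome 3 49093740–49094327 was 649 kb from Pcdh18, at 88.6.

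Fewer isolated regions were shared by all tissues than regions in general. Of the 996, 211 or 21.2% were called in all 4 tissues (exact 95% binomial interval 18.7 to 23.9%, which covers counting error only), against 42.3% of all regions. With only peaks of low local background, in the setting above, it was 15.5% against 14.4%, so the difference was not seen there. That filter removes shared regions unequally. In posterior trunk the background was over 1.5 times the lowest in 27.0% of shared members, against 73.3% of all shared regions. These shares were 23.7% against 57.3% in brain, 24.6% against 61.4% in distal forelimb and 22.7% against 58.6% in proximal forelimb. Equal sharing at equal background was thus not shown. In the lists as deposited, regions called in 1 tissue made up 614 or 61.6%, against 39.8%. Posterior trunk alone had 273 isolated regions, or 27.4%, close to its background of 28.5%. Brain alone had 200, or 20.1% against 5.94%. Distal forelimb alone had 85, or 8.53% against 3.13%, and proximal forelimb alone had 56, or 5.62% against 2.25%.

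**Figure D2:**
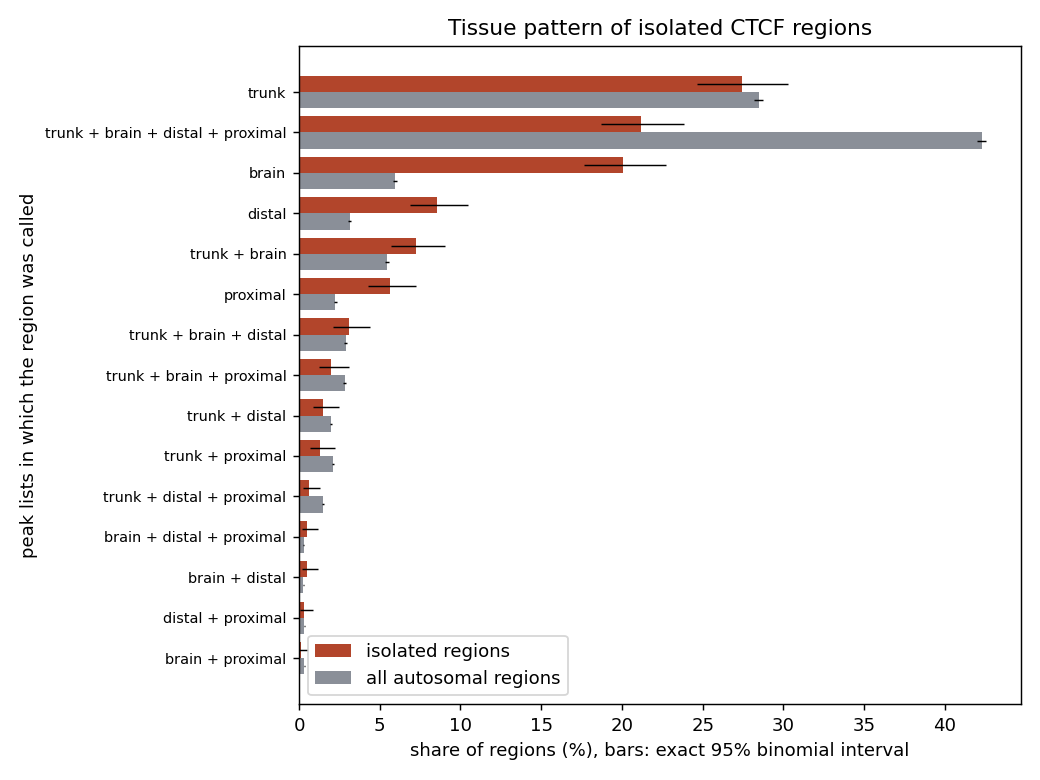
Share of regions (x axis, percent) called in each combination of peak lists (y axis) for the 996 isolated regions (red) and all 118663 autosomal regions (grey), with exact 95% binomial intervals. The isolated regions are at 21.2% against 42.3% for all 4 tissues and at 20.1% against 5.94% for brain alone.

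These shares depended on how deep and how strict the lists were. After pileups were thinned to the depth of distal forelimb and peaks under a −log10 p of 5 were dropped, isolation was measured again and 33.6% of isolated regions were called in all 4 tissues, against 51.9% of all regions. The brain-only share became 6.14% against 2.54%. With a −log10 q of at least 5 it was 5.32% against 2.37%, and in lists of equal length 7.98% against 4.82%. The trunk-only share, slightly under its background in the lists as deposited, was above it in each of these settings, at 27.3% against 20.8% after thinning, 37.5% against 28.5% at the stricter q, and 8.90% against 6.48% at equal length.

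After thinning and the common threshold together, members were kept about as often as all regions of the same pattern. All 211 isolated regions called in every tissue overlapped a region called then, as did 99.99% of all such regions. Of the 273 called in posterior trunk only, 133 or 48.7% did (interval 42.6 to 54.8%), against 47.02% of all trunk-only regions. Of the 200 called in brain only, 36 or 18% did (12.9 to 24.04%), against 21.3%. For distal forelimb alone it was 56.5% against 60.1%, and for proximal forelimb alone 55.4% against 55.5%. The median rank percentile of isolated regions called in 1 tissue was 5.68 in brain, 4.82 in distal forelimb, 4.29 in proximal forelimb and 18.8 in posterior trunk. Over all one-tissue regions of these lists it was 7.18, 5.39, 5.24 and 19.98.

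Within classes of 25 rank percentiles, sharing was closer to the background in some lists than in others. Above percentile 75, all isolated regions of each list were called in all 4 tissues, namely 51 of 51 in brain, 40 of 40 in distal forelimb, 38 of 38 in proximal forelimb and 84 of 84 in posterior trunk. Nearly all regions in general were too, at 99.95% or more in each list, so nothing is read from these counts. Between percentiles 50 and 75 of posterior trunk this held for 68.3% of isolated regions (interval 59.9 to 76.0%), against 74.4% of all regions. Between 25 and 50 it was 13% against 16.2%. In brain up to percentile 25 the share was 4.47% (interval 2.40 to 7.52%) against 16.3%, and in distal forelimb 21.4% (interval 15.5 to 28.3%) against 35.1%. Ranks were not alike within this class. Of its isolated regions, 184 of 291 in brain and 91 of 173 in distal forelimb lay in the weakest decile. Over all regions it was 7145 of 17838 and 6053 of 15570. Lower rank is thus mixed into these gaps, and sharing at equal rank was not tested.

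Sharing fell step by step with distance to the nearest neighbour. Regions with a smaller gap under 5 kb were called in all 4 tissues in 45.3% of cases, those at 5 to 20 kb in 42.4%, and those at 20 to 50 kb in 31.5%. From 50 to 75 kb the share was 27.0%, from 75 to 100 kb 22.8%, and at 100 kb or more 19.1%. Brain-only regions went the other way, from 4.54% under 5 kb to 17.0% at 75 to 100 kb and 24.2% at 100 kb or more. Rank differed along the same classes. From under 5 kb to 100 kb or more, the median percentile went from 51.8 to 15.9 in brain and from 51.1 to 25.5 in distal forelimb. It went from 50.8 to 28.4 in proximal forelimb and from 51.8 to 37.3 in posterior trunk. Classes were not compared at equal rank. The intervals for sharing from 75 to 100 kb (19.4 to 26.5%) and at 100 kb or more (15.5 to 23.1%) overlap. For brain-only regions the intervals of these classes were 13.96 to 20.3% and 20.2 to 28.5%, which barely overlap. Overlap does not show that classes are alike, and differences between classes were not tested. Regions with 75 kb free on 1 side only, 7622 in all, lay between, with 29.3% called in all 4 tissues and 13.9% in brain only.

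**Figure D3:**
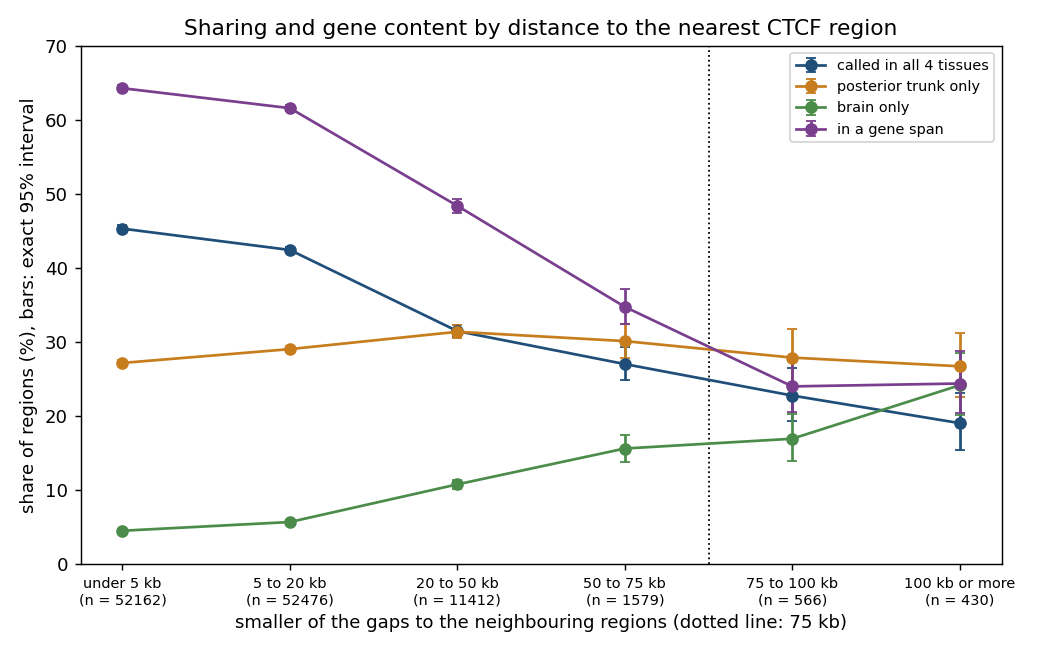
Share of regions (y axis, percent, with exact 95% binomial intervals) called in all 4 tissues, in posterior trunk only or in brain only, and share in a gene span, by the smaller gap to a neighbouring region (x axis, classes with n). Sharing goes from 45.3% to 19.1% and the brain-only share from 4.54% to 24.2% along the axis.

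Of the one-tissue isolated regions with the highest folds, 3 of 12 lay inside a protein-coding gene. Over all isolated regions 16.2% did, and 12 regions give no contrast with this share. In posterior trunk the leading regions were chromosome 3 71639162–71639657, 1249 kb from Sis, the sucrase-isomaltase gene, with a fold of 8.26 and percentile 61.7, and chromosome 1 114296335–114296862, 1388 kb from Cntnap5a, with 7.29 and 57.8. The next, chromosome 17 58243588–58244172, with 7.01 and 56.1, was in Cntnap5c, which like Cntnap5a belongs to the contactin-associated, neurexin-related adhesion genes.

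In brain the leading region was chromosome 1 28229671–28229989, 546 kb from Gm597, with a fold of 5.67 and percentile 44.0. Chromosome 3 13724492–13724763 in Ralyl, an RNA-binding protein gene, had 4.32 and 36.4, and chromosome 10 47505509–47505848, 1588 kb from the kainate receptor gene Grik2, had 4.25 and 33.4. Distal forelimb began with chromosome 5 63316686–63316972, 332 kb from Nwd2, at a fold of 4.77 and percentile 27.4, followed by regions nearest Esp31 and Wac. Proximal forelimb began with chromosome 1 99871471–99871828 in Cntnap5b, at 4.24 and 25.3, followed by regions nearest Ythdf3 and Slitrk1. Chromosome 13 65631843–65632086, also called in proximal forelimb only, had the same fold as the latter regions, 3.94, and is not counted among the 12. Of these 12 leading regions, only the trunk ones stood above the middle of their own list.

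Isolated regions missing from a single tissue made up 6.22%, against 7.50% of all regions. There were 5 missing from posterior trunk only (0.502% against 0.281%), 6 from brain only (0.602% against 1.48%), 20 from distal forelimb only (2.01% against 2.83%) and 31 from proximal forelimb only (3.11% against 2.90%). Chromosome 12 94939725–94940042, 752 kb from the adhesion gene Flrt2, was missing from brain only, at percentiles 41.2 in posterior trunk, 35.8 in distal forelimb and 52.9 in proximal forelimb. Lrp1b, a lipoprotein receptor gene, held one member of each forelimb kind. Chromosome 2 42055356–42055714 was missing from distal forelimb, with percentiles of 31.2 in posterior trunk, 49.1 in brain and 28.9 in proximal forelimb. Chromosome 2 41734583–41734987 was missing from proximal forelimb, with 61.4, 29.8 and 31.1 in the other tissues. The leading region missing from posterior trunk, chromosome 12 6042322–6042715, stood at 17.9 in proximal forelimb, 8.49 in distal forelimb and 34.8 in brain.

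Isolated regions lay in gene-poor DNA. Of the 996, 241 or 24.2% were in the span of a gene of any type (interval 21.6 to 27.0%), against 60.8% of all regions, and 161 or 16.2% were in a protein-coding span, against 52.0%. The median distance to the nearest protein-coding gene was 245 kb, and 303 or 30.4% had none within 500 kb, against 2.80% of all regions. Further than 1 Mb from any such gene were 115 or 11.5%, against 0.733%. Within 500 kb an isolated region had a median of 1 protein-coding gene, and regions in general 9. Between their neighbours on both sides, 617 or 61.9% had no protein-coding gene and 174 or 17.5% no gene of any type.

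**Figure D4:**
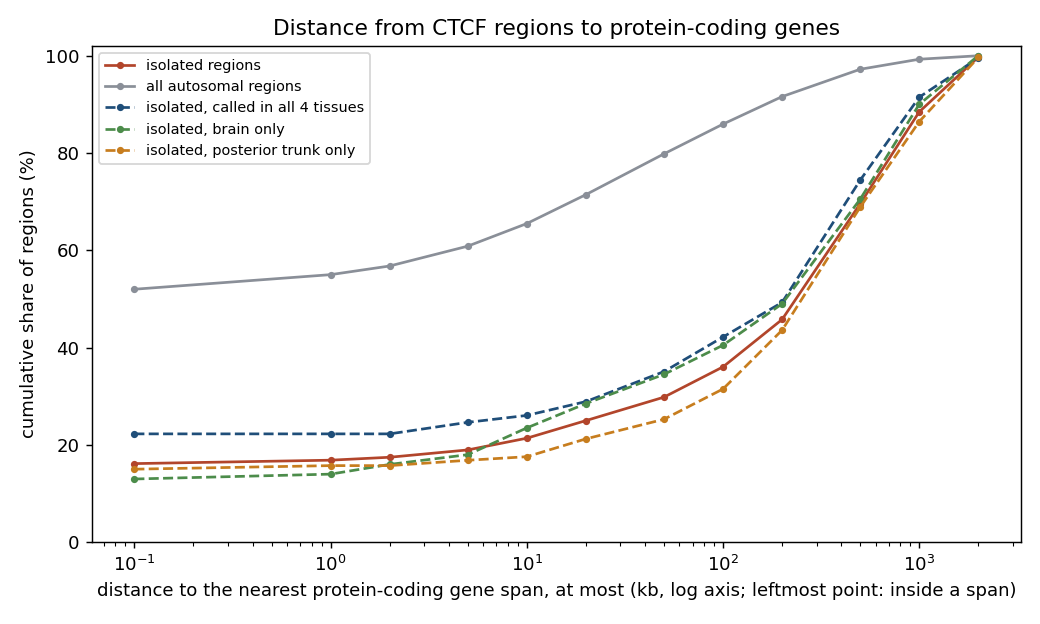
Cumulative share of regions (y axis, percent) by distance to the nearest protein-coding gene span (x axis, kb, log scale, with regions inside a span at the left end). The curve of all regions begins at 52.0%, that of isolated regions at 16.2%, and the curves for isolated regions called in all 4 tissues, in brain only and in posterior trunk only run close to the latter.

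The main tissue patterns had overlapping shares in genes. Of isolated regions called in all 4 tissues 22.3% were in a protein-coding span (interval 16.8 to 28.5%), of those in posterior trunk only 15.02% (10.998 to 19.8%) and of those in brain only 13% (8.67 to 18.5%). The shares with no such gene within 500 kb were 25.6%, 31.1% and 29.5% in the same order, 42.4% for distal forelimb alone (31.7 to 53.6%) and 25% for proximal forelimb alone (14.4 to 38.4%).

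Where isolated regions were in a gene, the gene was long. The 161 regions lay in 129 protein-coding genes of a median length of 392 kb, against 17.5 kb over all 20665 autosomal protein-coding genes, of which 0.624% held an isolated region. Of the 129, 55 or 42.6% were longer than 500 kb, as were 1.05% of all genes. A long gene has more room for a region of any kind, and whether these contrasts are particular to isolated regions was not tested. Lengths of the genes that hold any region, the closer comparison, were not measured. Ptprd, which encodes a receptor phosphatase of synapses and is 2271 kb long, held the most, with 5 of its 46 regions isolated. Agbl4, a carboxypeptidase gene, and Lrp1b held 4 each, of 33 and 32 regions. Ccser1 and Gabrg3, a GABA receptor subunit gene, held 3 each. With 2 each followed Kcnd2, Rit2, a neuronal small GTPase gene, Grm8, a metabotropic glutamate receptor gene, and Cntnap5c. The isolated regions of Ptprd had 4 tissue patterns, and 2 of the 5 were called everywhere.

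Genes of nerve cell contacts and signalling were common near isolated regions. Of 47 synaptic and neuronal adhesion genes on the autosomes, a list that also holds a few other long genes, 17 held an isolated region, as did 10 of 30 neurotransmitter receptor and channel genes and 1 of 21 cadherins and non-clustered protocadherins. Examples of the first list besides Ptprd were Cntnap5c, Adgrl3 and Cntn4, with 2 each, and of the second Kcnd2, Grm8 and Gria4, also with 2 each. In the third list it was Cdh12. Median gene lengths of these lists were 809, 396 and 197 kb, so the counts cannot be set against genes of ordinary length. Of 51 developmental transcription factor genes and 23 housekeeping genes, with medians of 28.5 and 5.48 kb, 0 held an isolated region. With 0.624% of all protein-coding genes holding one, lists of this size give no contrast.

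Many members lay outside these genes but nearest to them. The nearest protein-coding gene was on 1 of the 3 neuronal lists for 210 isolated regions, or 21.1%, against 2.94% of all regions. Cadherins and protocadherins alone were nearest to 77, or 7.73% against 0.672%. The lists were chosen with earlier results of these data known, so these contrasts are description only. The median distance to a protein-coding gene was also 245 kb for isolated regions, against 0 kb over all regions. Regions equally far from genes were not compared. Single genes most often nearest were not all from the lists. Csmd3, a large membrane protein gene, and Pcdh20 were each nearest to 9 isolated regions, at median distances of 778 and 409 kb. Brinp3, Cox7c, which encodes a subunit of cytochrome c oxidase, Flrt2, Pcdh7 and Pcdh9 were nearest to 8 each. Of the 9 near Csmd3 4 were called in all tissues, while all 8 near Brinp3 were called in 1 tissue.

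Among isolated regions the tissue patterns had like shares for these lists. The share nearest to a gene of the neuronal lists was 19.5% of brain-only isolated regions (interval 14.2 to 25.7%), 20.5% of trunk-only (15.9 to 25.8%), 17.6% of distal-only (10.2 to 27.4%), 23.2% of proximal-only (12.98 to 36.4%) and 22.7% of those called everywhere (17.3 to 29.01%). These intervals overlap throughout. Over all regions the shares were 6.39% of brain-only, 2.84% of trunk-only, 5.81% of distal-only, 6.18% of proximal-only and 2.03% of those called everywhere, so patterns that differed there were close to each other among members. Developmental transcription factor genes were nearest to 8 isolated regions, or 0.803%, against 1.28% of all regions.

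Olfactory and vomeronasal receptor genes, which lie in large clusters expressed in sensory neurons of the nose, were nearest to more isolated regions than regions in general. An olfactory receptor gene was nearest to 40 isolated regions, or 4.02% against 0.461% of all regions, and a vomeronasal receptor gene to 18, or 1.81% against 0.202%. Of brain-only isolated regions 9.50% were nearest to an olfactory receptor gene (interval 5.82 to 14.4%), against 2.93% of trunk-only (1.27 to 5.69%) 2.84% of those called everywhere (1.05 to 6.09%), 1.18% of distal-only (0.0298 to 6.38%) and 7.14% of proximal-only (1.98 to 17.3%). For vomeronasal receptor genes the shares were 5% of brain-only (2.42 to 9.003%), 0.733% of trunk-only (0.0888 to 2.62%), 1.42% of those called everywhere (0.294 to 4.099%), 3.53% of distal-only (0.734 to 9.97%) and 0 of 56 proximal-only. Differences between patterns were not tested, and most of these intervals overlap. Over all brain-only regions of the series the shares were 1.52% and 1.01%. Members inside such genes had low ranks. Olfr937, Olfr967, Olfr1111 and Vmn2r44 each held 1 brain-only region, at percentiles 7.61, 0.614, 0.322 and 3.80 of the brain list, and Olfr183 held 1 trunk-only region at 14.5 of the trunk list.

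The 5 members with the largest smaller gap differed in tissue pattern. Over all isolated regions 61.6% were called in 1 tissue and 21.2% in all 4, and 5 members give no contrast with these shares. The brain-only region in Vmn2r44, chromosome 7 8368823–8369022, had 1069 kb and 1642 kb free. On chromosome 12, a pair of trunk-only regions, 23743661–23743876 and 23122878–23123151, shared a gap of 621 kb, and the first lay 38.4 kb from the predicted gene Gm38699. Next came chromosome 11 14477670–14477938, 121 kb from Pom121l12, called in posterior trunk and distal forelimb, with 499 and 459 kb. Chromosome 7 11157890–11158453, 3.19 kb from Zscan4d, a gene of a repeated zinc-finger family, had 432 and 408 kb and was called everywhere, at percentiles 73.8, 44.0, 43.0 and 48.6.

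By chromosome, isolated regions were most frequent on 14 and 1 and least on 11. Chromosome 14 had 69, or 0.567 per Mb, chromosome 1 had 108, or 0.562 per Mb, and chromosome 12 had 58, or 0.496 per Mb. Chromosome 11 had 23, or 0.193 per Mb, chromosome 19 had 13, or 0.224 per Mb, and chromosome 9 had 31, or 0.255 per Mb. Protein-coding genes numbered 6.99, 6.26 and 5.81 per Mb on the first 3 of these chromosomes and 13.5, 12.1 and 9.89 per Mb on the last 3. Isolated regions called everywhere numbered 23 on chromosome 3, 20 on chromosome 1 and 1 on chromosome 19. Gene density and isolated regions did not follow one order throughout: chromosome 7, with 14.3 protein-coding genes per Mb, had 0.345 isolated regions per Mb.

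**Figure D5:**
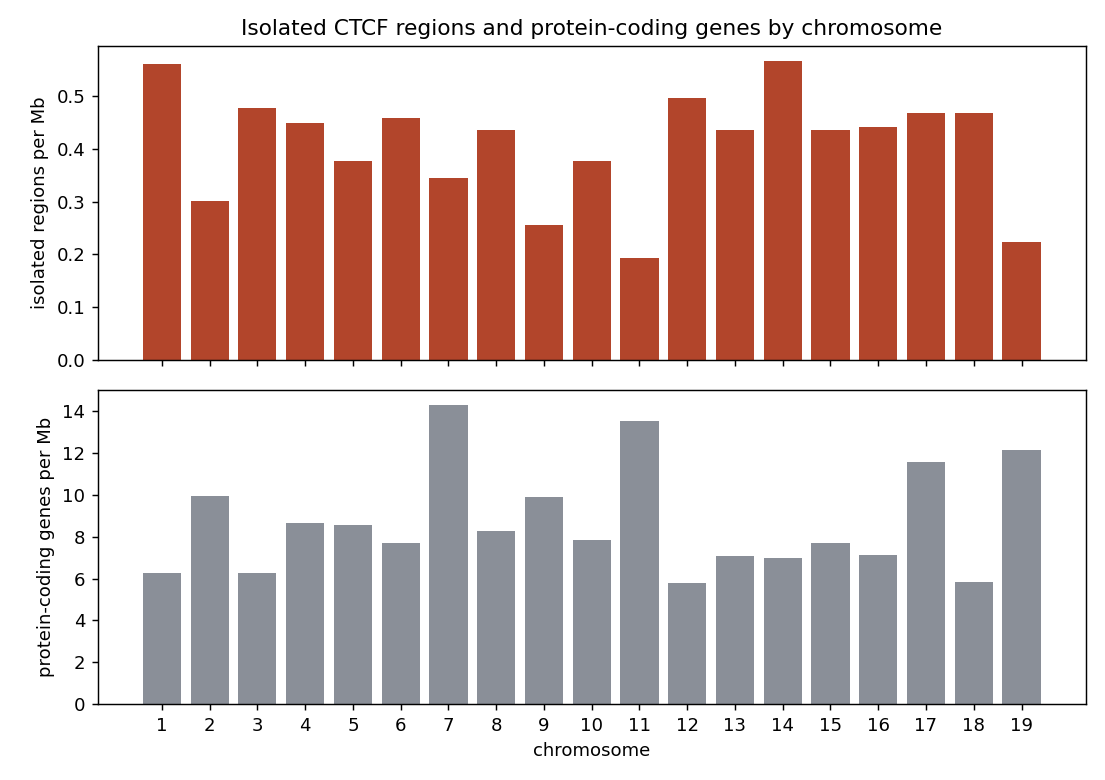
Isolated regions per Mb (upper panel) and protein-coding genes per Mb (lower panel) for chromosomes 1 to 19 (x axis), over the length from the first to the last region. Chromosome 14 is highest in the upper panel at 0.567 per Mb and chromosome 11 lowest at 0.193.

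In shape, isolated regions were narrower and their summits agreed less closely. The median width was 282 bases, against 368 over all regions. Among those called in all 4 tissues it was 489 bases, against 544. In the same regions the outermost summits of the 4 lists were a median of 24 bases apart, against 18 over all shared regions. Several summits in 1 peak occurred in 19 isolated regions, or 1.91%, against 3.70%.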

How the data were processed

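MACS2 2.1.1.20160309, with cutadapt 1.16, SAMtools 1.9 and Bowtie2 2.3.5, is named with build mm10 per the submitters' processing notes. Options and a control library were not given in the sources used here. A peak list for every tissue was deposited by the authors. For a peak, the deposited columns give a score, cut to a whole number from the −log10 q, then the fold or ratio of pileup to background, the −log10 p and the −log10 q at its summit.

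Rows with the same interval were collapsed to the strongest summit, and coordinates are 1-based. The first and last region of a chromosome were left out of the isolated set. Ranks are by −log10 p within a list. Whole pileups and backgrounds were recovered from fold and p (error at most 0.00031 in −log10 p). The lists give no read totals, so absolute depth is unknown. Genes came from the RefSeq table of GRCm38.p6, which gives spans without exons. Of 178 listed genes 172 were matched on the autosomes. Shares have exact 95% binomial intervals, and no test was run, with 1 library per tissue. Promoter windows were not used on chromosome 18. Assembly gaps and uniquely mappable sequence were not examined. On simulated data the steps recovered 20000 of 20000 pileups and 3000 of 3000 regions.

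The members and gene lists were chosen with earlier results of these data known. Named regions follow fixed rules: the 10 strongest shared members, the 5 with the largest smaller gap, the 3 one-tissue members with the highest fold per tissue, up to 2 members missing per tissue, members next to 75 kb, the longest runs, and the genes holding most members. Genes named by nearness, and those of receptor families that hold a member, were chosen after their values were seen. A gene that these rules name is not reported here. Alternatives were other gaps, stricter, equal-length or thinned lists, a union without posterior trunk, peaks of low local background only, counted chromosome ends and a coverage minimum. Computations used scipy 1.17.1, pandas 2.3.3 and numpy 2.4.6 under Python 3.11.15, and plots matplotlib 3.10.9.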

Additional observations from a re-analysis of the deposited data

Results flagged for a closer look

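Chromosomes X and Y were outside every comparison, and the same spacing was found there. Chromosome X had 206 regions with 75 kb free on both sides, of 2995 or 6.88%, against 0.839% on the autosomes. Of the 206, 74 were called in all 4 tissues. The share over all regions of chromosome X was not measured, so nothing is read from this count. Chromosome Y had 2 such regions, or 1.98% of its regions. Both counts are given because peaks of these chromosomes entered none of the comparisons.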

How the results depend on the processing

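The number of isolated regions followed the setting. It was 2575 with a gap of 50 kb, 430 with 100 kb, 1599 with a −log10 q of at least 5, 1843 in lists of equal length, 1709 after thinning and 1663 without the posterior trunk list. The last 4 settings use fewer peaks, which leaves wider gaps. The share called in all 4 tissues was 24.8% with 50 kb, 32.02% at the stricter q, 36.7% at equal length and 33.6% after thinning, each under the share of all regions in that setting. With only peaks of low local background, a setting added after seeing the data, it was 15.5% against 14.4% of all regions, so the difference was not seen there. As described above, that filter removes shared regions unequally, so equal sharing at equal background was not shown. In that setting the median rank percentile of isolated regions in posterior trunk was 55.3, against 50.03 over all regions, the opposite order to the lists as deposited, and the cause was not tested. The trunk-only share was 37.5% at the stricter q and 8.90% at equal length. The share in a gene span was 30.7% with 50 kb, 28.8% at the stricter q, 31.3% at equal length, 30.02% after thinning, 31.03% without posterior trunk, 27.3% with low local background and 16.2% with protein-coding genes only. The median rank percentile in posterior trunk was between 36.3 and 39.1 in the other settings run, each below the middle of the list. Shares called in all 4 tissues have no value without posterior trunk; in the other 3 lists 33.3% of isolated regions were called in each, against 59.4%. No paired analysis was possible because only 1 library stood for a tissue.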

Other observations

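The widest region of the series was an isolated one. Chromosome 14 19415761–19419636 was 3876 bases wide, held 11 peaks of the 4 lists and lay 114 kb from Gm2244. Its local background was 5.79 times the lowest of the list in posterior trunk, 6.36 times in brain, 9.50 times in distal forelimb and 9.04 times in proximal forelimb. The authors' folds there were 4.12, 4.09, 4.55 and 4.62. The region was chosen after its values were seen. Uniquely mappable sequence was not examined, and whether the signal of this region reflects CTCF binding was not tested.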
